A study of Mus musculus with 17 samples.

Results

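The 4 Egr genes (Egr1, Egr2, Egr3 and Egr4) and the 2 Nab genes (Nab1 and Nab2) were examined in ATAC-seq peaks of neuronal nuclei from the mouse nucleus accumbens. ATAC-seq uses a transposase that cuts and tags open DNA, so a peak marks accessible chromatin, not the level of a transcript. Each gene was taken with its body and 20 kb on either side (its window), and every peak of the 17 libraries that overlapped a window was counted. Overlapping peaks of all libraries were merged into 281189 regions, of which 60 lay in the 6 windows. Of these 60 regions, 36 were kept because at least 2 libraries of 1 group had called them, 24 were not kept, and 14 were called in all 17 libraries. Over the whole genome 147420 regions were kept and 36847 were called in all 17.

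Nuclei carrying the neuronal protein NeuN had been sorted from the bilateral nucleus accumbens of C57BL/6 mice (C57BL/6J in the study's methods) aged 52 to 54 days, and each library pooled 3 animals. Cocaine (10 mg/kg, i.p.) was given 1 h before sacrifice, and controls were animals without cocaine, with no vehicle injection stated. Females were taken in diestrus, when estrogen is low and progesterone high, or in proestrus, when estrogen is high. Control and cocaine groups had 3 libraries each in diestrus and in proestrus, and males had 3 control and 2 cocaine libraries. Diestrus cocaine library 2 carried no stage label, so its title gave its group. In pooled nuclei, fewer nuclei with an open site and a less open site in every nucleus cannot be told apart.

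Egr proteins are zinc-finger transcription factors encoded by immediate early genes, which are transcribed within minutes of synaptic activity or dopamine receptor stimulation without new protein synthesis. Their transcription is driven largely by ERK signaling, through serum response factor (SRF) and ternary complex factors bound at CArG boxes, and by CREB at cAMP response elements. Egr1 (also Zif268) is the member most used as a marker of neuronal activation in the striatum, and Egr2 (Krox20) also directs myelination by Schwann cells. Egr3 is itself a target of Egr1, and Egr4 (NGFI-C) is a relative found mainly in the nervous system. Nab1 and Nab2 are corepressors that bind Egr1, Egr2 and Egr3, and Nab2 is induced by Egr proteins and so closes a feedback loop.

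Sequences at the promoters are shown because the motifs of the known regulators of Egr genes can be read in them. The RefSeq promoter table (GRCm38.p6, the mm10 build) held 4 of the 6 genes. Capitals mark matches, on either strand, to a CArG box (CC, then 6 bases of A or T, then GG, the core of the serum response element) or, in Nab1, to the Egr site GCGTGGGCG or GCGGGGGCG. Stretches from exons are limited to a match and its flanks.
Egr2, chr10:67537316-67537565, plus strand: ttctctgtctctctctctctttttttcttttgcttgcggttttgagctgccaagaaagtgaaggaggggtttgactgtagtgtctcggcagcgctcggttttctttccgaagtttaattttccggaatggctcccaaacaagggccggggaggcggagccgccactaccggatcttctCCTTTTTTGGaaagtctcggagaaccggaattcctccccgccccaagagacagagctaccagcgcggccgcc
Egr2, chr10:67537787-67537816, plus strand: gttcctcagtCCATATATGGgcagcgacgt
Egr4, chr6:85513590-85513839, minus strand: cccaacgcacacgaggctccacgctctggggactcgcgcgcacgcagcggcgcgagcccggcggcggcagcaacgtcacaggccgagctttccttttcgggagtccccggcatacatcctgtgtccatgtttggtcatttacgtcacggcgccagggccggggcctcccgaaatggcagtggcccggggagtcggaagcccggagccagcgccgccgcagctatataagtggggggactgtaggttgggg
Nab1, chr1:52500571-52500599, minus strand: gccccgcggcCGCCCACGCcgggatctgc
Nab1, chr1:52500539-52500567, minus strand: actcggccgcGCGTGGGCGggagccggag
Nab1, chr1:52500468-52500496, minus strand: gcggggcgggGCGGGGGCGgcggaggtgg
Nab2, chr10:127666711-127666900, minus strand: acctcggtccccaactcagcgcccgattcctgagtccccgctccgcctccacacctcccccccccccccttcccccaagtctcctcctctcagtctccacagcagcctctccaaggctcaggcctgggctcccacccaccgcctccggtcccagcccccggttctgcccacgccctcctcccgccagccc

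Egr2 held CArG boxes in both stretches, while 1.63% of all 32851 promoter windows in the table held one. Nab1, the corepressor, held 3 matches to the Egr site, which occurred in 3.47% of all promoter windows. Egr4 and Nab2 held none of the motifs searched in the stretches shown. The other motifs searched were the cAMP response element TGACGTCA, found in 1.79% of promoter windows, and the AP-1 site TGACTCA or TGAGTCA, found in 5.2%. A match is a description of letters and not evidence of binding. Around the summits (within 100 bases) of the 26 kept regions in the Egr2, Egr4, Nab1 and Nab2 windows, 1 held a CArG box (at +22.8 kb in the Egr4 window), 4 an AP-1 site and 1 an Egr site (the Nab1 promoter). None held the cAMP response element. Over all 147420 kept regions the shares were 1.12% for the CArG box, 10.1% for AP-1, 0.667% for the Egr site and 0.498% for the cAMP response element.

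Beyond the promoters, 201 bases around 3 summits are shown here. Those in Egr2 and Nab1 lie in regions whose calls differed between groups, as described later, and the third is the strongest summit of the Nab2 window, where no difference was called. The latter lay at −8.38 kb, in an intron of Nemp1 close to the Nemp1 start. None of the 3 held any of the 4 motifs.
Egr2 downstream, chr10:67542583-67542783, plus strand: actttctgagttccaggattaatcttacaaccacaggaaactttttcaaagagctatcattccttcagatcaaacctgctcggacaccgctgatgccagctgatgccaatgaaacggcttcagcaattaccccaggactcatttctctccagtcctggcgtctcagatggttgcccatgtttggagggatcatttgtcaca
Nab1 intron, chr1:52465264-52465464, minus strand: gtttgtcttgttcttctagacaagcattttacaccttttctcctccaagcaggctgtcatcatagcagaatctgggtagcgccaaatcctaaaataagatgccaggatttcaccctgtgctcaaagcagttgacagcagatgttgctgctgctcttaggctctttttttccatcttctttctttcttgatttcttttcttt
Nemp1 intron in the Nab2 window, chr10:127676845-127677045, minus strand: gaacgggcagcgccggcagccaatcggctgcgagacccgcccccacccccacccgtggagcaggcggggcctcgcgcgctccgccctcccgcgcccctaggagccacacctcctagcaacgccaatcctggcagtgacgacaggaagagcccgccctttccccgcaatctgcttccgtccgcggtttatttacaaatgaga

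Libraries differed in depth and in number of peaks in ways that touch every result below. Peaks per library ranged from 75458 to 157005, and the 2 male cocaine libraries had the fewest (75458 and 87707). The background pileup, a measure of relative depth recovered from the files, ranged from 6.26 to 9.55 reads. It was 7.60 to 8.15 in male cocaine libraries and 6.26 to 8.11 in male controls, so their low number of peaks did not follow this measure. A region without a peak may still be open, so a missing call means not called at this depth. Markers of neurons (Rbfox3, Snap25, Syt1) and of medium spiny neurons (Drd1, Drd2, Ppp1r1b, Penk, Tac1), the projection neurons of the striatum, had a promoter peak in 17 of 17 libraries. Of the glial and vascular markers, Mbp was called in 17, Gfap in 16 and Mog in 1, while Aldh1l1, Aqp4, Cx3cr1, C1qa, Csf1r, Cldn5 and Pecam1 were called in 0 of 17. Slc17a7, a marker of cortical excitatory neurons, was called in 9 libraries: 2 of 3 diestrus control, 1 of 3 diestrus cocaine, 3 of 3 proestrus control and 3 of 3 male control, with fold enrichments from 2.32 to 15.9. It was called in none of the proestrus cocaine or male cocaine libraries. Neurod6 was called in 3 of 3 male controls (6.50 to 7.44) and 2 of 3 proestrus cocaine libraries (2.70 and 2.72), and Emx1 in 3 male controls only (3.84 to 5.10). All 12 female and no male libraries had a peak at the promoter of Xist, the X inactivation transcript.

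In mm10 coordinates with GENCODE annotation, Egr1 lies at chr18:34859823-34864984 and Egr3 at chr14:70077203-70082614, both on the plus strand. Egr2 lies at chr10:67535475-67542188 on the plus strand and Nab2 on the minus strand of the same chromosome at chr10:127660918-127668568. Egr4 at chr6:85511121-85513589 and Nab1 at chr1:52457294-52500679 are on minus strands. The windows also hold the 5′ ends of neighbors: Reep2 beside Egr1, Ado beside Egr2, Bin3 beside Egr3, Fbxo41 beside Egr4, and Nemp1 and Stat6 beside Nab2.

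All 6 genes were open at their promoters in every group. A peak lay within 1 kb of the 5′ end in 17 of 17 libraries for Egr1, Egr3, Egr4, Nab1 and Nab2, and in 16 of 17 for Egr2, where the remaining library had one within 3 kb. Levels are given as fold enrichment, the read pileup at a peak's summit over the background that the peak caller estimated, with the highest summit of the region taken in each library. Fold enrichments are levels within a library and were not scaled between libraries by the authors.

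**Figure D1:**
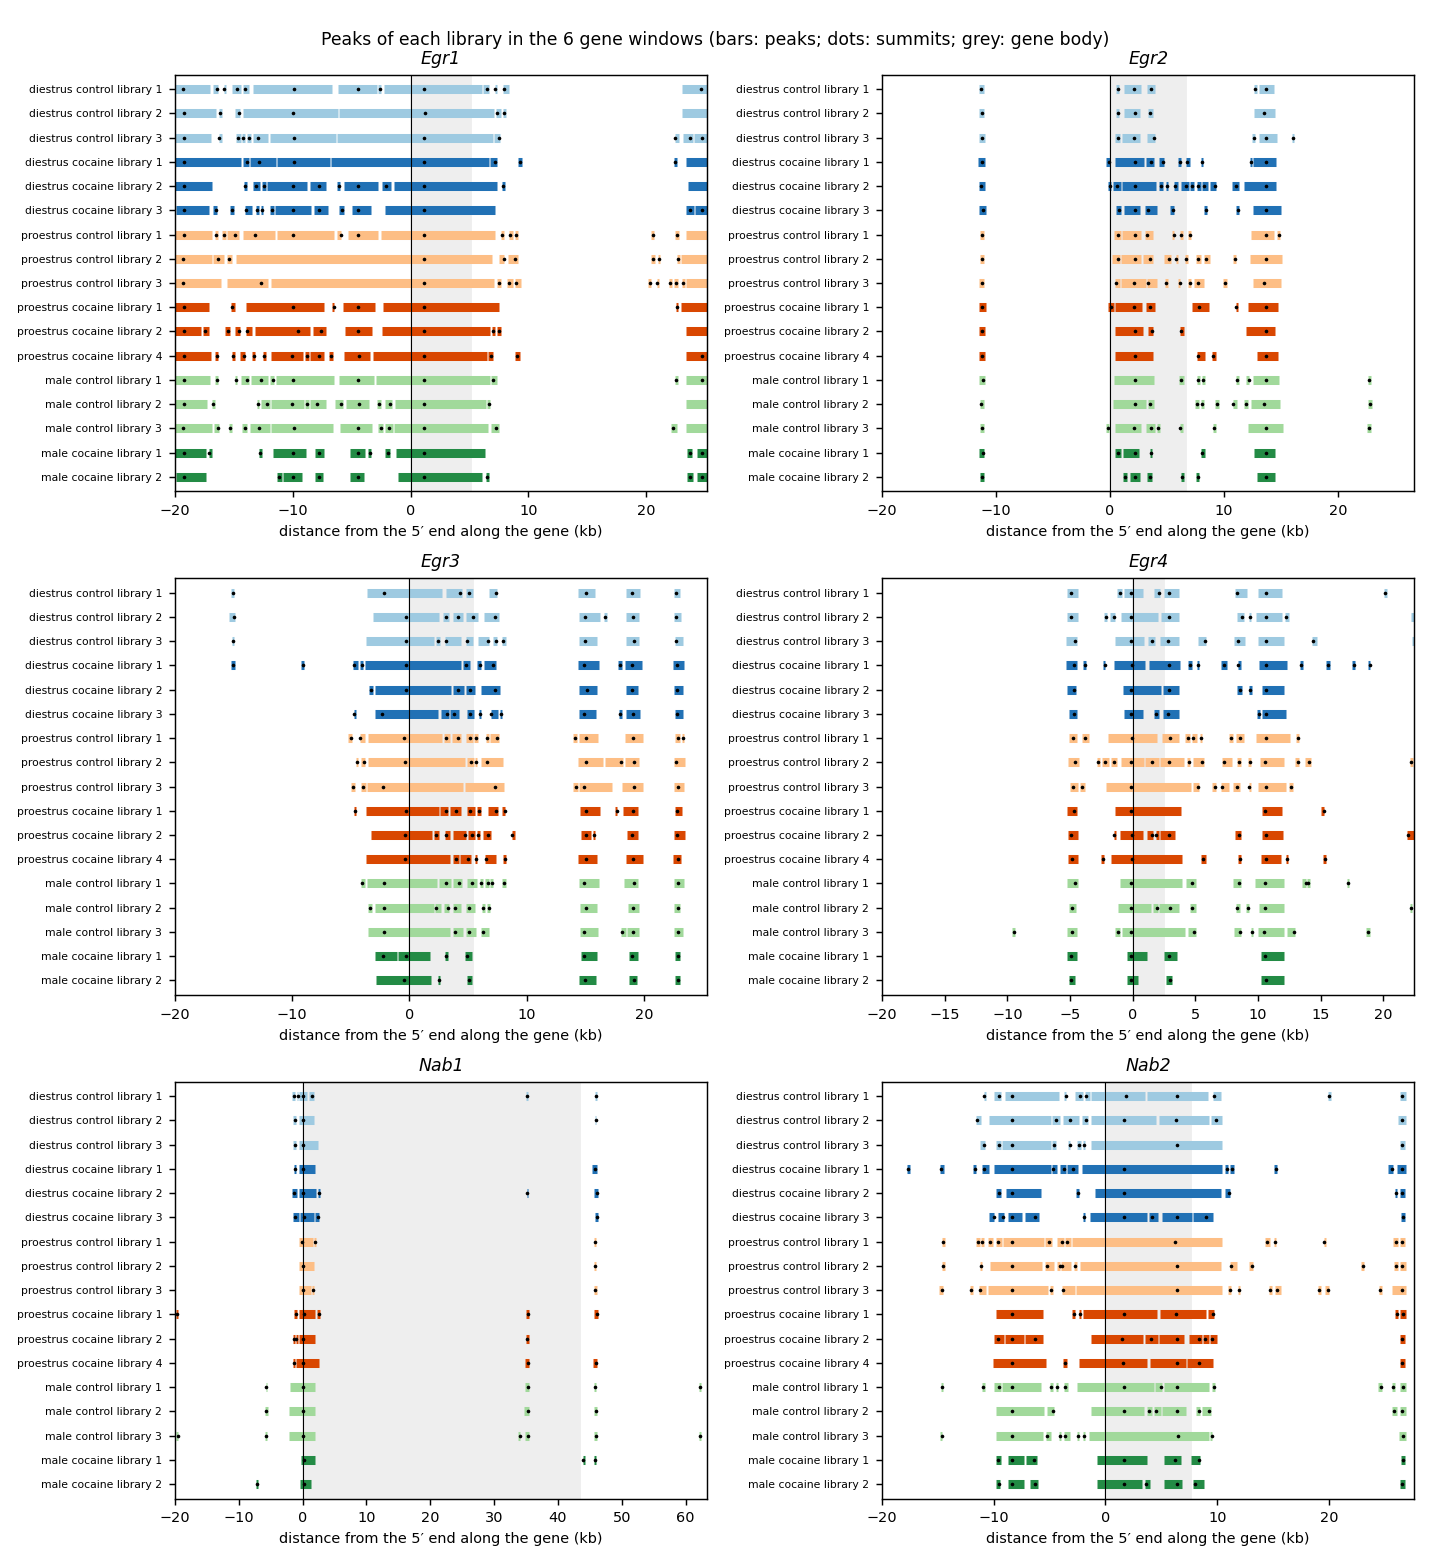
Peaks (bars) and their summits (dots) of each of the 17 libraries, 1 line per library colored by group, in the 6 gene windows, against the distance from the 5′ end along the gene in kb, with the gene body in grey. Egr1 and Nab2 sit in near-continuous stretches of peaks, Nab1 has an isolated promoter peak in a long gene, and the male cocaine libraries have the fewest bars.

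Egr1 had the most accessible promoter of the 6. Its region, chr18:34836571-34869285, was 32715 bp wide and ran upstream past the 5′ end of Reep2, the gene of an endoplasmic reticulum protein. The highest summit lay 1.15 kb inside the gene over an annotated exon, at the same place in all 17 libraries (SD 12.04 bp). There the fold enrichment was 45.1, 55.5 and 53.0 in diestrus controls and 63.2, 64.4 and 41.3 after cocaine. In proestrus it was 39.3, 51.2 and 53.9 in controls and 48.6, 55.5 and 46.1 after cocaine. Males had 56.7, 50.8 and 56.5 as controls and 44.2 and 45.3 after cocaine. Groups overlapped in both female stages, whereas both male cocaine values lay under all male controls before scaling. Ranked among the 36847 regions called everywhere, this region stood at the 99.6th percentile of fold enrichment (median over libraries). Farther upstream, separate summits recurred at −4.4 kb in 12 libraries (14.8 to 27.7) and at −10.0 kb in 14 libraries (8.61 to 17.9).

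Egr4 and the region at the Nab2 promoter came next, and their order was not distinguishable. Egr4 had a median of 25.8 (range 20.7 to 34.7) in chr6:85507744-85516141, with its summit 0.095 kb upstream of the start, inside the Egr4 stretch shown above. Nab2 had a median of 26.5 (19.9 to 34.2) in chr10:127658110-127680467, but the highest summit there belonged to the Nemp1 intron, so that value is shared with the neighbor. Summits inside the Nab2 gene body, with distances from its GENCODE 5′ end, were lower. The summit at +1.70 kb lay inside the Nab2 promoter stretch shown above, 35 bp from an annotated Nemp1 transcript start. Its median was 12.2 (8.84 to 18.6, 12 libraries). In a Nab2 intron at +6.401 kb the median was 12.005 (7.12 to 17.7, 15 libraries). Egr2 and Egr3 were alike in level, with medians of 16.6 (12.2 to 23.5) and 16.5 (11.7 to 21.5). The Egr2 summit lay at +2.17 kb, within 223 bp of an internal Egr2 start, and between the CArG matches shown above. Nab1 had the lowest promoter region, with a median of 10.7 (6.86 to 15.7) in chr1:52497887-52502732. That range overlapped those of the summits inside Nab2. By percentile among regions called everywhere, the medians were 95.4 for Egr4, 88.7 for Egr2, 87.3 for Egr3 and 76.4 for Nab1. The Nab2 region, at its summit in the Nemp1 intron, had 96.1.

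**Figure D2:**
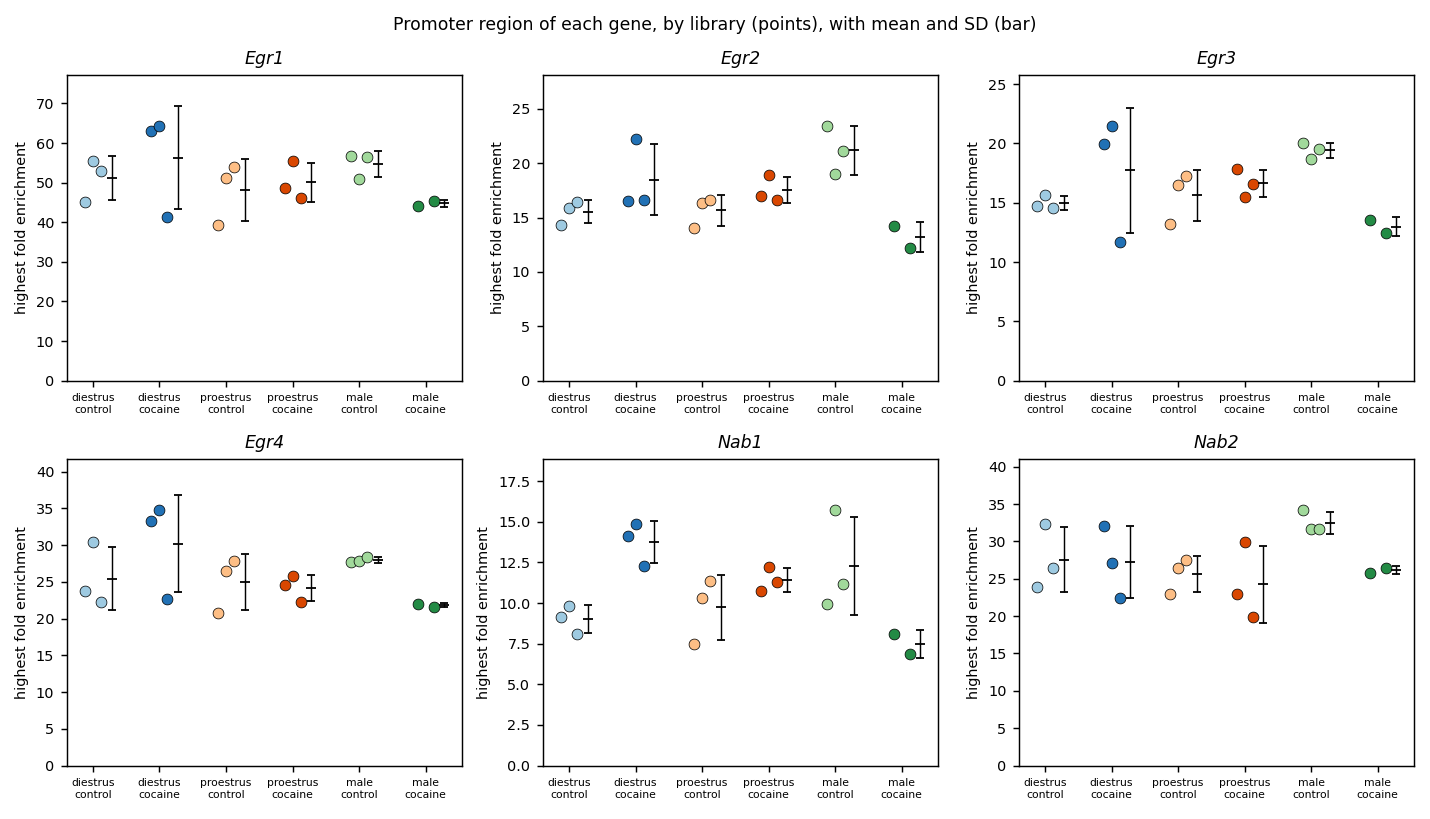
Highest fold enrichment in the promoter region of each gene (y axis, starting at 0) in each library (points) of the 6 groups, with the group mean and SD as a bar. In Nab1 the 3 diestrus cocaine libraries (12.3 to 14.8) lie above the 3 diestrus controls (8.09 to 9.82), and in every gene the male cocaine libraries lie under the male controls on this unscaled axis.

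The first question was whether cocaine changed the accessibility of these regions in diestrus, proestrus or males. For the 14 regions called in all 17 libraries, log2 fold enrichment was centred on each library's median and compared with limma across all 36847 such regions. A region was called changed at an adjusted p (Benjamini-Hochberg over all of them) under 0.05. Of the 14, 6 held a member's own 5′ end, 4 held only a neighbor's and 4 held none.

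In diestrus, 3 of the 14 regions were more open after cocaine and none less, against 11.1% of all tested regions (2268 higher, 1807 lower). The first was the promoter of Nab1, the corepressor. Its fold enrichment was 9.16, 9.82 and 8.09 in diestrus controls and 14.1, 14.8 and 12.3 after cocaine, with no overlap. The centred difference was 0.59 on the log2 scale (SE 0.17, limma adjusted p = 0.023). The difference stayed between 0.49 and 0.61, but the call was lost, without diestrus control library 3 (adjusted p = 0.126), without cocaine library 2 (0.101) or 3 (0.152), and without centring (0.0749). Of the medium spiny neuron markers, Penk and Tac1 moved the same way. Their promoters had 4.39 to 5.81 and 4.05 to 4.47 in diestrus controls against 7.81 to 13.5 and 6.32 to 8.30 after cocaine. Drd1 (6.84 to 8.71 and 5.28 to 11.87), Drd2 (5.68 to 5.92 and 4.94 to 6.29) and Ppp1r1b (20.65 to 28.36 and 11.94 to 26.71) overlapped between these groups. The part of these markers in the result was not tested.

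Both other calls in diestrus belonged to neighbors. The Ado promoter (a thiol dioxygenase gene, chr10:67547254-67550703) lies 13.7 kb from the Egr2 start and had 17.9, 18.3 and 15.05 in controls and 22.7, 30.6 and 19.985 after cocaine. Its difference was 0.48 (SE 0.15, limma adjusted p = 0.041), with groups that did not overlap. The promoter of Bin3 (a BAR-domain gene, chr14:70099731-70100728) lies 22.9 kb from the Egr3 start and had 5.42, 5.92 and 5.81 in controls and 10.9, 9.06 and 5.51 after cocaine. Before scaling, cocaine library 3 was at the level of the controls. That library's median fold over the tested regions was 5.40, beside 6.45 to 6.85 in diestrus controls. After centring, its Bin3 value lay above those of all diestrus controls. The centred difference was 0.50 (SE 0.15, limma adjusted p = 0.033). Bin3 was also the 1 region of 14 called in the mean cocaine effect over the 3 strata, at 0.27 (SE 0.09, adjusted p = 0.048), against 13.8% of all regions. Leaving out single libraries ended the Ado call in 9 of 17 cases, the Bin3 call in diestrus in 6 and the Bin3 call in the mean in 13.

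None of the Egr promoters passed the test in diestrus. The paper reports a diestrus-specific gain at the Egr2 promoter, found with DESeq2 on read counts in peaks. The test here used the highest summit ratio of a merged region, which is an unlike measure. The Egr1 difference was 0.10 (SE 0.14, adjusted p = 0.69), Egr2 0.22 (0.32), Egr3 0.18 (0.40) and Egr4 0.22 (0.30), with adjusted p in brackets. In this and the other limma comparisons of promoters, the Nab2 value is that of its region's highest summit, in the Nemp1 intron. It stood at −0.04 (0.88). For Egr2 before scaling, the control values of 14.3, 15.9 and 16.4 all lay under the cocaine values of 16.5, 22.3 and 16.7. The closest pair differed by less than the spread within either group. After centring the groups overlapped, at 1.15 to 1.26 in controls and 1.05 to 1.63 after cocaine, with cocaine library 1 under all controls. Without diestrus cocaine library 1 the Egr2 difference became 0.41 (adjusted p = 0.028). The median of the 6 promoters was 0.20 in diestrus, with 5 above 0, beside 0.014 over all tested regions.

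In proestrus, 0 of the 14 regions were called, against 3.4% of all regions (571 higher, 681 lower). Egr1 differed by −0.04, Egr2 by 0.06, Egr3 by −0.01, Egr4 by −0.14, Nab1 by 0.14 and Nab2 by −0.20, with adjusted p from 0.42 to 0.98. In males the count was also 0 of 14, against 9.56% of all regions (2049 higher, 1473 lower). Differences in the male promoters were 0.20 for Egr1 (SE 0.16), −0.20 for Egr2, −0.10 for Egr3, 0.12 for Egr4, −0.21 for Nab1 and 0.17 for Nab2. The positive male signs of Egr1, Egr4 and Nab2 rest on the centring: without it all 6 promoters were lower after cocaine (median −0.47) as was the median of all regions (−0.40). The other 3, Egr2, Egr3 and Nab1, were negative either way and passed the test only without centring. At an unadjusted p under 0.05 the limma count was also 0 of 14 in both proestrus and males. A p over the threshold does not show equal levels.

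**Figure D3:**
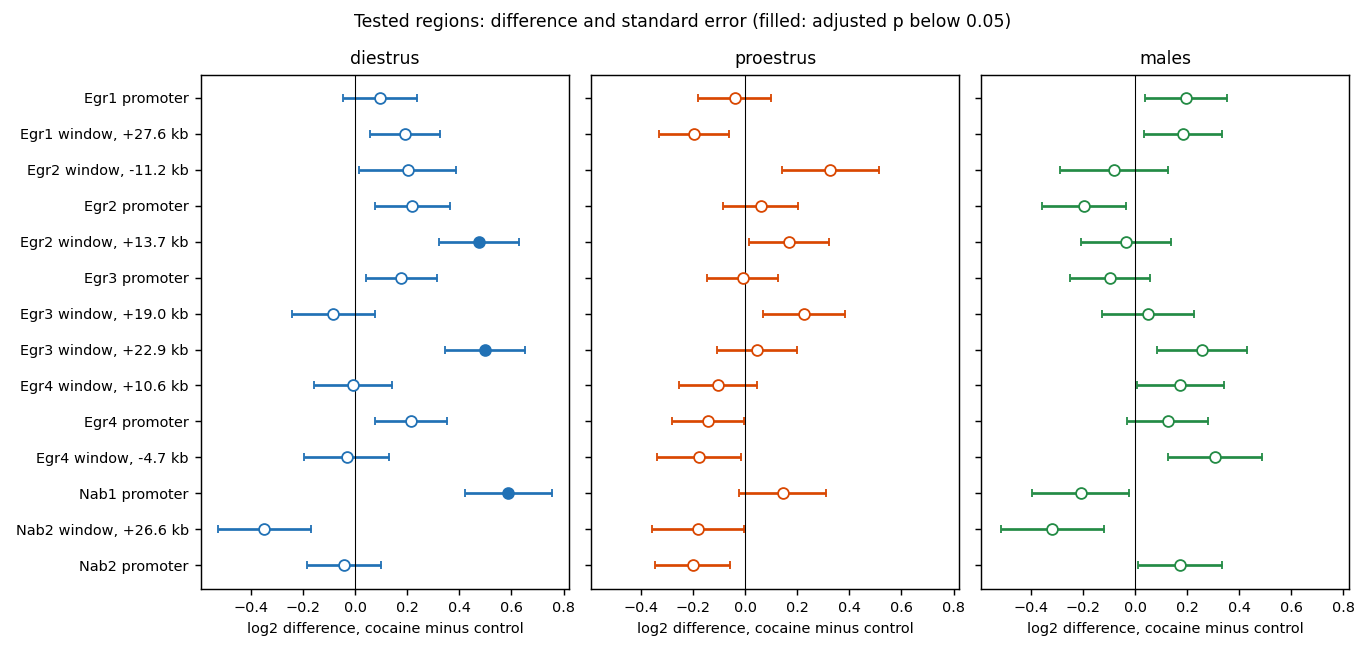
Log2 difference in centred fold enrichment, cocaine minus control (x axis), with its standard error, for the 14 regions called in all 17 libraries, in diestrus, proestrus and males. Filled points have an adjusted p under 0.05 and are the Nab1 promoter, the Ado promoter (Egr2 window, +13.7 kb) and the Bin3 promoter (Egr3 window, +22.9 kb), all in diestrus.

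Whether the cocaine difference itself differed between males and females was tested directly, and 0 of the 14 regions were called by limma, against 18.4% of all regions (4382 higher, 2407 lower), and 1 at an unadjusted p under 0.05. That was the Nab1 promoter, at −0.58 (SE 0.22, adjusted p = 0.063). Among controls, 0 of 14 differed between the sexes, against 24.9% of all regions, and 0 of 14 between diestrus and proestrus, against 0.318%. At an unadjusted p under 0.05 these limma counts were 0 and 1, the 1 being the Bin3 promoter.

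Broad regions can hide separate summits, so 500-bp sites around summits found in all 17 libraries (31417 sites) were compared in the same way, a comparison added after the data had been seen. Of 13 such sites in the windows, 4 were called in diestrus (3 higher, 1 lower), against 11.8% of all sites, and 1 in males minus females, against 19.4%. The sites higher in diestrus were those of the Nab1, Ado and Bin3 promoters. At the other site, in the Egr3 window 15 kb downstream of the start and 7.9 kb from Bin3 (chr14, position 70092202), the centred cocaine difference had opposite signs in the sexes. Diestrus controls had 9.81, 13.8 and 12.6 and cocaine libraries 11.2, 8.80 and 6.32. Proestrus controls had 8.34, 9.28 and 8.53 and cocaine libraries 7.01, 6.84 and 7.12. Male controls had 13.3, 8.95 and 9.99 and cocaine libraries 8.96 and 9.88. Before scaling, groups overlapped in diestrus and males and were apart in proestrus. The centred difference was −0.51 in diestrus (SE 0.15, adjusted p = 0.026), −0.42 in proestrus (0.097) and 0.32 in males (0.22), and males minus females came to 0.78 (SE 0.20, adjusted p = 0.0071). The positive male value rests on the centring, since the unscaled male cocaine values lay within the range of the male controls.

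The weaker regions of the windows were called in some libraries only, so they were compared by calls. Within a stratum (diestrus, proestrus or males), a region was gained where all cocaine libraries and no controls had called it, and lost where all controls and no cocaine libraries had. With 3 libraries against 3, or 2 against 3, no p under 0.1 is possible, so these are descriptions. Of the 36 kept regions, diestrus had 1 gained (1.16% of all kept regions) and 0 lost (1.26%), proestrus 1 gained (2.45%) and 2 lost (1.64%), and males 0 gained (1.66%) and 4 lost (16.8%).

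The region gained in diestrus spans the 3′ end of Egr2 at +7.2 kb (chr10:67539633-67544219). It was called in none of the diestrus controls and in all 3 diestrus cocaine libraries, at fold enrichments of 2.85, 3.77 and 2.53. Every proestrus and male library also called it, with or without cocaine, so the diestrus controls were the only group without it. At peaks with −log10 q of 5 or more, or with equal numbers of peaks per library, the gain was no longer seen.

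In Nab1, an intronic region at +35.3 kb (chr1:52465144-52465977) was gained in proestrus and lost in males. Proestrus controls had no peak and proestrus cocaine libraries had 3.71, 2.89 and 3.77. Male controls had 7.65, 6.20 and 6.37 and male cocaine libraries had no peak. In diestrus 1 control (3.23) and 1 cocaine library (2.77) called it, which makes 8 libraries in all. Male controls were the highest group at this site, and they were also the only group in which all 3 libraries called both Neurod6 and Emx1, cortical markers. Slc17a7, the other cortical marker, was called in 3 of 3 male controls and 0 of 2 male cocaine libraries. In proestrus it went the other way, in 3 of 3 controls and 0 of 3 cocaine libraries. The part of these markers in the result was not tested.

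The regions lost in proestrus were weak peaks at the edges of other windows. At +20.3 kb from Egr1 (chr18:34879964-34880547) only the 3 proestrus controls had a peak, at 2.22, 3.13 and 3.22. In the Nemp1 intron at −14.7 kb from Nab2 (chr10:127682914-127683437) proestrus controls had 2.64, 2.55 and 3.32, 1 diestrus cocaine library had 2.97 and 2 male controls had 2.55 and 2.31. Of the cortical markers, Slc17a7 was called in 3 of 3 proestrus controls and 0 of 3 proestrus cocaine libraries. Neurod6 went the other way, in 0 of 3 and 2 of 3, and Emx1 was called in neither group. The part of these markers in the result was not tested.

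Besides the Nab1 intron, 3 regions were lost in males. Regions at −5.7 kb from Nab1 (chr1:52506070-52506579; 2.93, 2.62 and 3.51) and at +22.8 kb from Egr2 (chr10:67558053-67558453; 2.55, 4.13 and 2.74) had peaks in male controls and in no other library. At +8.4 kb from Egr4 (chr6:85503975-85506566), 13 of the 17 libraries had a peak, including all 3 male controls and neither male cocaine library. Over all libraries, Fisher's exact test for cocaine against control gave this Egr4 region an unadjusted p of 0.029 and an adjusted p of 0.32. Fisher's exact test called none of the 10 member regions that could be tested and 0.0% of 64304 regions in all, in either direction, though 2452 were called more often and 5933 less often after cocaine at an unadjusted p under 0.05. Slc17a7 was likewise called in all 3 male controls and neither male cocaine library.

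Among controls, 2 of the 36 regions were called in all male and no female libraries (7.2% of all kept regions) and 0 the other way (0.314%). Those were the regions at −5.7 kb from Nab1 and +22.8 kb from Egr2. Neurod6 and Emx1 were likewise called in all 3 male and none of the 6 female controls. Slc17a7 was called in all 3 male controls but also in 2 of 3 diestrus and 3 of 3 proestrus controls. The part of these markers in the result was not tested. By stage, 1 was called in all diestrus and no proestrus controls (3.96%) and 4 in the converse (0.792%). The diestrus region lay 15 kb upstream of Egr3 (chr14:70061837-70062370), at 3.10, 2.57 and 3.32, and was called elsewhere only in diestrus cocaine library 1 (3.09). The 4 proestrus regions were the 3′ region of Egr2, the lost regions of the Egr1 and Nab2 windows, and a region 4.4 kb upstream of Egr3 (chr14:70072002-70072870; 2.64, 2.78 and 2.56).

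The length of each window covered by peaks shows changes in the breadth of open chromatin that merged regions hide. It was compared between cocaine and control libraries within the 3 strata by an exact permutation test (two-sided, 4000 assignments), with adjustment over the windows of 21755 protein-coding genes. After adjustment 0.0% of the windows were called, with a smallest adjusted p of 0.054, while 444 were longer and 7597 shorter after cocaine at an unadjusted p under 0.05. Over all windows 69.8% were shorter.

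In Nab1, female and male libraries went opposite ways. Its covered length was 3296, 3050 and 3419 bp in diestrus controls and 3597, 4743 and 4130 bp after cocaine. In proestrus it was 2768, 2636 and 2492 bp in controls and 4832, 3595 and 5145 bp after cocaine, and in males 5393, 5784 and 6098 bp in controls and 2925 and 1866 bp after cocaine. Groups were apart in all 3 strata, each with the smallest exact p possible (0.1), and the mean over strata was −190 bp (exact permutation p = 0.783). The cocaine difference in males minus that in females, a comparison added after the data had been seen, was −4760 bp (exact permutation p = 0.00025, the smallest possible, adjusted p = 0.0059), against 15.1% of the 21755 windows. Per Mb of each library's own covered length the order was the same: Nab1 went from a mean of 36.8 to 53.3 bp per Mb in diestrus, from 30.4 to 54.5 in proestrus and from 63.6 to 51.0 in males. Males minus females on that scale came to −33.0 bp per Mb (adjusted p = 0.030), against 19.1% of windows. The permutations on both scales assume no cocaine effect in any stratum, so they are not a test of equal effects in the sexes. Of the medium spiny neuron markers, the Penk promoter moved with these lengths. It had 4.39 to 5.81 in diestrus controls and 7.81 to 13.5 after cocaine. In proestrus it had 5.80 to 7.58 and 8.02 to 9.41, and in males 7.03 to 8.29 and 3.72 to 6.01. Tac1 was apart in diestrus only, and Drd1, Drd2 and Ppp1r1b overlapped between control and cocaine libraries in every stratum. The neuronal marker Rbfox3 went the other way in proestrus, with 9.05 to 12.42 in controls and 4.81 to 4.92 after cocaine. In males it was lower after cocaine (5.78 to 8.41 and 4.37 to 4.65). Snap25 moved with the lengths in proestrus (16.89 to 20.19 and 21.99 to 25.13) and males (25.14 to 26 and 18.13 to 18.15). Syt1 did so in diestrus (19.65 to 20.01 and 20.44 to 28.05) and males (24.81 to 27.79 and 22.32 to 23.61). In diestrus Rbfox3 and Snap25 overlapped, as did Syt1 in proestrus. Emx1 was called only in the 3 male controls, the group with the longest Nab1 coverage, and Neurod6 and Slc17a7 in all 3 of them. Slc17a7 was also called in 3 of 3 proestrus controls, the group with the shortest, and in 0 of 3 proestrus cocaine libraries. The part of these markers in the result was not tested.

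Egr2 covered 4387, 4536 and 5247 bp in diestrus controls and 7695, 11354 and 6824 bp after cocaine, without overlap (exact p = 0.1). In proestrus it covered 7840 ± 1358 bp in controls and 7215 ± 1190 bp after cocaine (SD, n = 3 and 3, exact p = 0.7). Male controls covered 8252, 8246 and 7899 bp and male cocaine libraries 4741 and 4181 bp (exact p = 0.1). In base pairs diestrus controls and male cocaine libraries were thus the lowest groups. Per Mb of each library's own covered length, the diestrus means kept their order (53.2 in controls and 109 bp per Mb after cocaine), but males went from 89.8 to 96.3 and were no longer lower after cocaine. Males minus females came to −5310 bp, which missed the threshold (adjusted p = 0.054).

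In the other 4 windows all cocaine libraries had shorter covered lengths in base pairs than all controls in proestrus and in males. Per Mb of each library's own covered length the male means of Egr1 (269 and 355 bp per Mb), Nab2 (186 and 217) and Egr3 (139.8 and 174) were higher after cocaine, and only that of Egr4 was lower (108 and 95.5). The proestrus means per Mb stayed lower after cocaine in all 4: Egr1 342 and 292, Nab2 264 and 198, Egr3 189 and 159, Egr4 139 and 98.3. Egr1 covered 27409 ± 715 bp in diestrus controls and 24895 ± 3670 bp after cocaine (exact p = 0.4). In proestrus Egr1 had 28145, 30502 and 30825 bp in controls and 24998, 23841 and 23656 bp after cocaine, and in males 25785, 21860 and 25815 bp in controls and 17726 and 15222 bp after cocaine, without overlap in either (exact p = 0.1). Nab2 went from 23000 ± 1122 bp to 16365 ± 1181 bp in proestrus, and from 16980 ± 1764 bp to 9988 ± 217 bp in males. Egr4 went from 12095 ± 505 bp to 8138 ± 969 bp in proestrus and from 9868 ± 1229 bp to 4469 ± 1066 bp in males. Egr3 went from 16519 ± 1900 bp to 13214 ± 1063 bp in proestrus and from 12761 ± 1365 bp to 8002 ± 120 bp in males. These SDs are over 3 libraries, or 2 for male cocaine, and each comparison had an exact p of 0.1.

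Averaged over strata, the difference was −5395 bp for Egr1 (exact permutation p = 0.00175, adjusted p = 0.054), −5028 bp for Nab2 (0.00275, 0.054), −3336 bp for Egr4 (0.0035, 0.054) and −2488 bp for Egr3 (0.0198, 0.0763). The direction of this average depends on library breadth. Per Mb of each library's covered length, Egr1 (11.7 bp per Mb) and Egr3 (8.89) turned positive while Egr4 (−17.8) and Nab2 (−12.3) stayed negative. In proestrus the means of all 4 genes were lower after cocaine on both scales. Among females alone the 4 differences were also negative, from −4087 bp for Egr1 to −1352 bp for Egr3, and none was called. Covered length of the whole library ranged from 42.2 to 107 Mb, lowest in the male cocaine libraries.

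**Figure D4:**
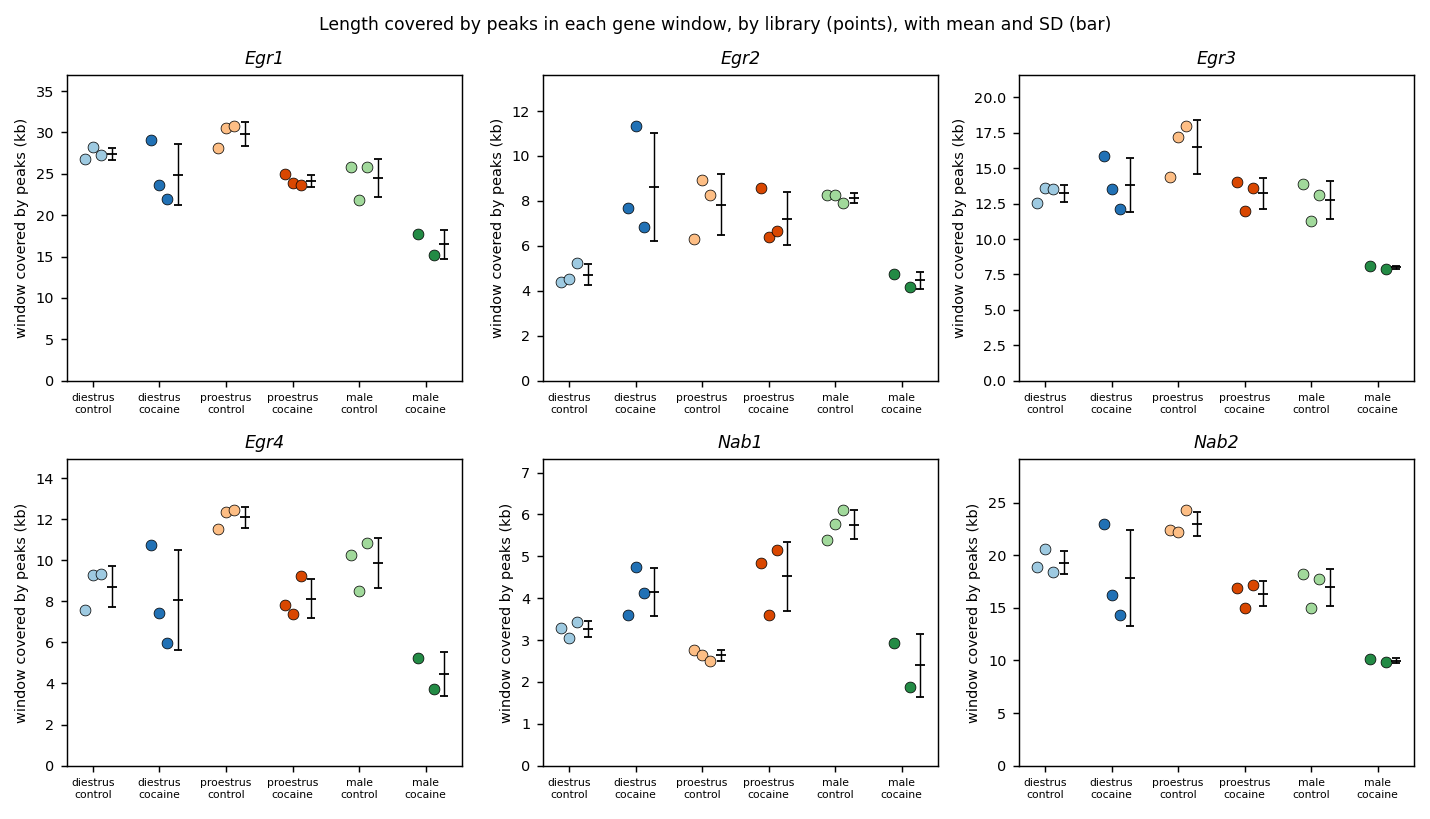
Length of each gene window covered by peaks in kb (y axis, starting at 0) in each library (points) of the 6 groups, with the group mean and SD as a bar. Nab1 is longer after cocaine in both female stages (means of 3255 and 4157 bp in diestrus, 2632 and 4524 bp in proestrus) and shorter in males (5758 and 2396 bp), while Egr1, Egr3, Egr4 and Nab2 are shorter after cocaine in proestrus and males.

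Covered lengths of the genes followed each other to different degrees over the 17 libraries, as Spearman correlations that share depth and breadth of the libraries and are given as descriptions. Egr1 went with Nab2 (0.968), Egr4 (0.853) and Egr3 (0.831) and against Nab1 (−0.287). With the covered length of the whole library the correlations were 0.740 for Egr1, 0.721 for Egr3, 0.816 for Egr4 and 0.730 for Nab2, against 0.382 for Egr2 and 0.248 for Nab1. Among all protein-coding genes the windows most like Egr1 were those of Hnrnpa0 (0.993), Ell (0.990) and Klf16 (0.990). For Egr2 they were Ado (0.990, an overlapping window), Magee1 (0.853) and Olfr31 (0.843). Nab1 was nearest to Tmtc2 (0.980), Sgcd (0.978) and Tox (0.968), and Egr4 to Mtcl1 (0.983), Gpr61 (0.980) and Ccdc88c (0.971). For Egr3 the nearest was 5330417C22Rik (0.956), and Nab2 had its neighbors Stat6 (0.998) and Nemp1 (0.993) with C1qtnf4 (0.993).

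Promoters of genes that act upstream of Egr transcription were compared as a list of 9 (Srf, Elk1, Elk4, Mrtfa, Mrtfb, Mapk3, Map2k1, Rps6ka5 and Creb1), all 9 of them tested. In diestrus 1 of 9 rose, near the share of all regions (6.16% higher, 4.9% lower). It was Creb1, which encodes the factor that binds cAMP response elements. Creb1 had 27.1, 35.8 and 28.5 in diestrus controls and 44.0, 54.3 and 34.9 after cocaine. These groups overlapped at 1 library before scaling and were apart after centring. The centred Creb1 difference was 0.51 (SE 0.15, limma adjusted p = 0.024). In proestrus and males 0 of 9 were called by limma (2 and 2 at an unadjusted p under 0.05). The list median was 0.05 in diestrus, −0.06 in proestrus and 0.20 in males, beside 0.014, −0.017 and 0.088 over all regions. In males minus females 2 of 9 were higher (11.9% of all regions higher, 6.53% lower), Srf (0.61, adjusted p = 0.036) and Mapk3, the kinase ERK1 (0.64, adjusted p = 0.024). Those counts depend on the scaling: without centring 0 of 9 were higher and 3 lower (list median −0.29 in place of 0.25), and with quantile normalization 2 were higher and 2 lower. Mapk3 was also lower in male than in female controls (−0.64, adjusted p = 0.00053), against 14.4% of all regions lower.

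Of 9 other immediate early genes (Fos, Fosb, Fosl2, Junb, Arc, Npas4, Nr4a1, Ier2 and Dusp1), 1 fell in diestrus (4.9% of all regions lower), Ier2, at −0.53 (adjusted p = 0.041). Its levels were 12.3, 11.5 and 11.4 in diestrus controls and 11.3, 8.68 and 5.74 after cocaine, so that 1 cocaine library lay next to the controls before scaling. In proestrus and males 0 of 9 were called by limma (1 and 2 at an unadjusted p under 0.05), with list medians of −0.19 and 0.25. Males minus females gave 2 of 9 higher, beside 11.9% of all regions, Fosb (0.69, adjusted p = 0.018), an AP-1 subunit, and Npas4 (0.69, adjusted p = 0.033), a neuronal activity factor. With quantile normalization the Npas4 call was lost (adjusted p = 0.058), and without centring 0 of 9 were higher and 1 lower. Beside 14.4% of all regions, 3 of 9 were lower in male than in female controls: Fosb (−0.50), Npas4 (−0.59) and Arc (−0.37, adjusted p = 0.029), a synaptic plasticity gene.

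Among 6 targets and partners of Egr proteins (Cdk5r1, Gabra4, Arc, Syn1, Chd3 and Chd4), 1 fell in diestrus (4.9% of all regions lower), Chd3, a subunit of the NuRD complex through which Nab proteins repress (−0.57, adjusted p = 0.025). Chd3 had 16.9, 23.8 and 21.4 in diestrus controls and 19.2, 17.9 and 8.04 after cocaine, with overlap before scaling and none after centring. In proestrus and males 0 of 6 were called by limma (3 and 0 at an unadjusted p under 0.05). Chd3 (0.70) and Cdk5r1 (0.61), the p35 activator of Cdk5, were higher in males minus females (2 of 6, beside 11.9% of all regions), where without centring 0 were higher and 2 lower. Cdk5r1 (−0.40) and Arc were lower in male than in female controls (2 of 6, beside 14.4%). Without centring none of the calls named for the 3 lists held, the lowest adjusted p being 0.0977. The diestrus differences were then about as large (Creb1 0.53, Ier2 −0.51, Chd3 −0.55), while those in males minus females became small (Srf 0.06, Fosb 0.15, Cdk5r1 0.06), and the male medians of the lists turned negative (−0.28, −0.24 and −0.37).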

How the data were processed

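NeuN-sorted nuclei from 17 pools (3 animals each) were profiled by ATAC-seq. The submitters' processing notes name BWA, MACS2, featureCounts, DESeq2 and mm10. The authors trimmed reads, aligned them with BWA-MEM and called peaks in each library separately. MACS2 versions and options are not given in the sources used here. Each deposited peak holds a fold enrichment (a ratio of summit pileup to background), −log10 p and −log10 q values and a score, which was not used. The lowest −log10 q per library was 1.31 to 1.64. No read counts were analysed here, so no count test was run.

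Groups came from sample titles. Peaks of all libraries overlapping by 1 bp were merged, and regions called by at least 2 libraries of 1 group were kept. Regions called in all 17 were tested with limma 3.58.1 (R 4.3.3) on log2 of the highest fold enrichment, centred on library medians, with a mean-variance trend, and Benjamini-Hochberg adjustment over 36847 regions at 0.05. Regions called in 4 to 13 libraries went into Fisher's exact test (two-sided). Other steps used Python 3.11.15, numpy 2.4.6, pandas 2.3.3 and scipy 1.17.1. P-values measure the spread between pools. No pair of libraries shared more than 0.0728% of their intervals. In a test on simulated data of all 36847 regions in the diestrus comparison, limma recovered 88% of regions changed by 1 on the log2 scale and 13% of those changed by 0.5.

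All 6 genes were named with their promoter regions; other regions in the windows were named where called by limma or where gained, lost or separating control groups; list genes were named where called. The members, lists and tests were chosen with earlier results of these data known, and some items of the lists are not reported here. Alternatives changed the centring, thresholds, windows and libraries. Coordinates are mm10, counted from 1.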

Additional observations from a re-analysis of the deposited data

Results flagged for a closer look

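In 5 results the cocaine effect in males minus that in females passed the threshold, and in 1 the directions were opposite without a test. The 5 count the Nab1 covered length in both of its units. In the Nab1 window the cocaine difference in covered length in males minus that in females was −4760 bp (adjusted p = 0.0059), or −33.0 bp per Mb of the library's covered length (adjusted p = 0.030). The permutations behind the covered-length values here assume no cocaine effect in any stratum, so they are not a test of equal effects in the sexes. Per Mb, Egr1 gave 113 (adjusted p = 0.040) and Nab2 64.2 (adjusted p = 0.023). In base pairs neither passed, and both had the opposite sign (−3926 bp for Egr1 and −2946 bp for Nab2). Per Mb 19.1% of all windows were called. Over all genes 66.9% of windows had a negative value in base pairs and 34.3% per Mb. The site 15 kb downstream of the Egr3 start gave 0.78 on the log2 scale. The Nab1 intronic region at +35.3 kb, called in 8 libraries, was gained in proestrus and lost in males, a difference that was not tested.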

How the results depend on the processing

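Counts of called member regions moved most with the centring. Without it the counts were 0 in diestrus, 4 in males (the Nab1, Egr2 and Egr3 promoters and the Stat6 promoter, all lower), 5 in males minus females and 3 between control sexes, and over all regions the male split became 114 higher and 12136 lower. With quantile normalization the mean cocaine effect gave 0 and males minus females 3, summit sites gave 1 in males minus females, and females alone gave 1 in diestrus. Signs turned without centring for Egr1 (−0.29), Egr4 (−0.36) and Nab2 (−0.31) in males and for Egr1 (0.0655) and Egr3 (0.10) in proestrus, and with quantile normalization for Egr4 in males (−0.0349) and Egr1 (0.0852) and Egr3 (0.0562) in proestrus. At −log10 q of 5 or more Egr3 in proestrus was 0.0103. Replicate numbers did not pair the libraries (correlations of same-numbered deviations of −0.29, 0.02 and −0.14 in diestrus, 0.20 and 0.12 in proestrus, 0.02 and 0.016 in males). With the replicate block the mean cocaine effect gave 0 called member regions and Egr1 in proestrus 0.0202. Gained regions in diestrus numbered 0 at −log10 q of 5, with equal numbers of peaks or with 50% of the region covered, and 2 with windows of 50 kb, where 2 were lost. Gained regions in proestrus numbered 0 at −log10 q of 5, and lost ones 1 there, 0 with equal peaks and 0 with windows of 5 kb. Lost regions in males numbered 2 at −log10 q of 5, 1 with equal peaks, 8 at 50% covered, 2 at 5 kb and 13 at 50 kb. With windows of 50 kb the covered length of 3 genes was called (Egr1, Egr4 and Nab2, adjusted p = 0.048). Scaled by the library's covered length, signs turned for Egr1 (11.7 bp per Mb), Egr2 (19.99), Egr3 (8.89) and Nab1 (9.33). Egr2 was 128 bp at 5 kb and 1638 bp in females alone, where Nab1 was 1397 bp. Leaving out 1 library at a time gave 0 to 3 called regions in diestrus, 0 in proestrus and males, 0 to 2 in the mean effect and in males minus females, gained 1 to 2 and lost 0 to 1 in diestrus, gained 1 to 2 and lost 2 to 6 in proestrus, lost 4 to 7 in males, and covered length called in 0 to 4 genes (without diestrus cocaine library 1, Egr1, Egr4 and Nab2 had an adjusted p of 0.0070). Without single libraries signs also turned for Nab1 in males (−0.35 to 0.0201) and proestrus (−0.0203 to 0.25), Egr2 (−0.0114 to 0.11), Egr1 (−0.17 to 0.0272) and Egr3 (−0.11 to 0.0435) in proestrus, Nab2 in diestrus (−0.11 to 0.068) and Egr2 covered length (−587 to 168 bp). Called regions over the genome then ranged from 364 to 10082 in diestrus, 206 to 3852 in proestrus, 755 to 5678 in males, 3070 to 8736 in the mean effect, 2045 to 10181 in males minus females and 4 to 496 between stages. The cause of these changes was not tested. Summit fold enrichment ignores breadth, and depth limits calls of weak peaks.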
